A study of Mus musculus with 18 samples.

Results

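The type I interferon response genes described here are 41 mouse genes, chosen by name as interferon-stimulated genes, with no threshold on their values but with earlier results of these arrays known. All 41 were measured, among 23102 genes in all. They comprise 3 signalling and transcription factors, 10 antiviral effectors, 5 oligoadenylate synthetases and related proteins, 4 nucleic acid sensors, 7 enzymes of the ubiquitin, ISG15 and ADP-ribose systems, 6 GTPases and 6 other interferon-induced genes. J774, the cell line used, is an established macrophage line from mouse. Total RNA was hybridised to 18 Affymetrix arrays, 3 for each of 6 groups of cells kept in medium free of phenol red and plated in 24-well plates. The vehicle group received neither particles nor hormone, the estradiol group 2 µg/mL of estrogen, given in the study as 17-β estradiol, the talc group 10 µg of talc per well, and the TiO2 group 10 µg of titanium dioxide per well. The talc plus estradiol and TiO2 plus estradiol groups received the particle and the hormone at those doses, and all treatments lasted 24 h. The composition of the vehicle is not given in the sources used here.

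Type I interferons are secreted after pattern recognition receptors sense viral nucleic acid or bacterial products, and they signal through the receptor chains IFNAR1 and IFNAR2 and the kinases JAK1 and TYK2. STAT2 and IRF9 then act within the factor ISGF3, which binds interferon-stimulated response elements in the promoters of its targets. The targets encode proteins that block viral entry, translation and replication, and others that sense nucleic acid or dampen the signal. Macrophages keep many of these genes on at a low level through constant weak interferon signalling.

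The response element was searched for in the promoters of these genes, which had been chosen by name as interferon-stimulated genes. In 300-base windows of RefSeq promoters (GRCm38.p6, from 250 bases before to 50 after a transcript's start), 31 of the 41 genes could be matched by symbol, with 37 windows. The core of that element, taken as GAAA, any 2 bases and GAAA and searched on both strands with overlapping matches allowed, was present in 16 of the 37 windows (43.2%), against 1131 of all 32851 windows (3.44%). The gamma-activated site TTCNNNGAA, which reads the same on both strands, was present in 7 of the 37 (18.9%), against 8.3% of all windows. Of the genes that passed the test with talc in the average of both estradiol arms, as described further on, 4 of 11 matched genes held the response element core in a window, against 11 of the 20 others. The stretches around the core are shown for those 4 genes, together with Isg15, whose window holds 3 overlapping cores and which did not pass the test with talc. Isg15 was added after its values had been seen. Capitals mark the core or the run of overlapping cores. In the first 4 it lies on the reverse strand and so reads TTTC, any 2 bases and TTTC, and in Isg15 it lies on the strand shown.
Stat2, chr10:128270256-128270305, plus strand: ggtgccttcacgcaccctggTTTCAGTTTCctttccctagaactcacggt
Gbp7, chr3:142530263-142530312, plus strand: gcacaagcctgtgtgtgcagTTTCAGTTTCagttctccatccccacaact
Trim30a, chr7:104465200-104465249, minus strand: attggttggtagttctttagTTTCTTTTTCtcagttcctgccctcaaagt
Gbp2, chr3:142620584-142620633, plus strand: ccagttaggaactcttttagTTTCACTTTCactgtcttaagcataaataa
Isg15, chr4:156200855-156200916, minus strand: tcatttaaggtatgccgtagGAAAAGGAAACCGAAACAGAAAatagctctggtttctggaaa
The core lay 44 to 53 bases before the transcript start in Gbp7, 50 to 59 before it in Gbp2 and 27 to 36 before it in Trim30a. A second Trim30a window, at another transcript start, held 1 core, which began after that start. In Stat2 it lay farther upstream, at 213 to 222 bases, and in Isg15 the run covered bases 57 to 78 before the start. The windows of Epsti1, Ifi44, Ifit2, Ifi35, Samd9l, Herc6 and Cmpk2 did not contain these letters. A match is a description of the sequence and was not tested for binding.

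Levels below are log2 intensities averaged over a gene's probe sets, and a difference of 1 on that scale is a doubling or halving of the intensity. The number of arrays limits the precision, and the median standard error was 0.151 log2 units for 3 arrays against 3. Array medians over probe sets ranged from 45.6 to 48.0 intensity units, and TiO2 plus estradiol replicate 3 had the lowest upper quartile of gene levels, 7.05 on the log2 scale against at most 7.26. Because the labels number the arrays group by group, the order of the arrays and the groups cannot be told apart. Whether the 3 arrays of a group stand for separate cultures is not stated, and the p-values therefore reflect just the spread among these samples, which could be technical. The mean levels of 11 macrophage markers ran from 6.56 for Adgre1 (percentile 67.9 of all genes) and 7.53 for Mertk to 12.8 for Cd68 (percentile 99.9). Mean levels ran from 2.98 to 4.02 for lymphocyte markers, from 3.05 to 4.35 for granulocyte markers, from 3.02 to 5.04 for fibroblast markers and from 3.89 to 5.4 for epithelial markers. Of the plasmacytoid dendritic cell markers Tcf4 and Bst2 were the brightest, at 8.60 and 7.32, and the others lay between 3.56 and 5.28. In bulk RNA, fewer cells of a kind and less RNA per cell cannot be told apart.

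Several interferon response genes fell with talc and 1 rose. Against vehicle, 8 of the 41 genes fell and 1 rose at an adjusted p under 0.05 (limma, Benjamini-Hochberg over all genes), while 4.52% of all genes fell and 3.94% rose. In the arm with estradiol, 4 fell and 1 rose, against 3% and 4.13% of all genes. That count was 2 without talc plus estradiol replicate 3 and 3 without its replicate 2. With both arms averaged, 11 fell (26.8%) and 1 rose, against 6.87% and 7.92% of all genes. Those that fell in the average were Epsti1, Ifi44, Gbp7, Ifit2, Gbp2, Cmpk2, Trim30a, Stat2, Herc6, Oas2 and Samd9l, and the gene that rose was Ifi35. The median change over the 41 genes was -0.21 against vehicle, -0.08 with estradiol and -0.12 in the average, where the medians of all genes were 0.02, -0.00 and 0.01. Changes below zero were found for 32, 25 and 30 of the 41 genes, against 46.7%, 50.6% and 48.5% of all genes. The share of genes that pass also depends on level: among genes above the median level of all genes, 10 of 28 of the listed genes fell with talc in the average (35.7%), against 12.8% of all such genes.

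**Figure D1:**
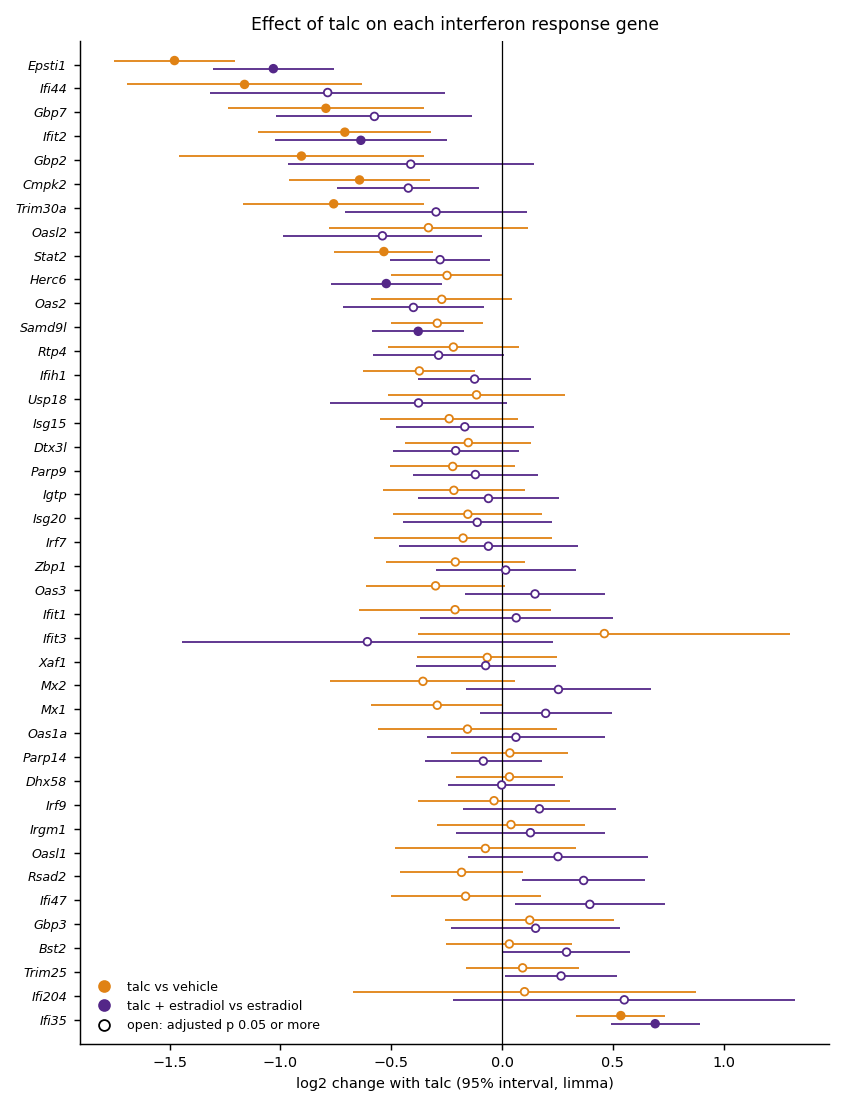
Log2 change with talc for each of the 41 genes, without estradiol (orange) and with it (purple); points are estimates of the limma model, lines are 95% intervals, and open points did not pass an adjusted p of 0.05. Epsti1 lies farthest to the left in both arms, at -1.48 and -1.03, and Ifi35 is the gene that passed to the right of zero, at 0.54 and 0.69.

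Epsti1, an interferon-induced gene first described in epithelial cells next to stroma, had the largest called change with talc among the 41. Its level was 7.22, 6.91 and 6.85 on the vehicle arrays and 5.4, 5.55 and 5.59 on the talc arrays. In the estradiol arm it was 6.78, 6.81 and 7.0 without talc and 5.86, 5.87 and 5.77 with it. Every talc array of either arm lay below every array without particles. The difference was -1.48 ± 0.13 (SE) against vehicle, a 2.79-fold lower intensity (limma adjusted p = 4.5e-06), and -1.03 ± 0.13 with estradiol, 2.05-fold lower (adjusted p = 0.00013). All 13 of its probe sets were lower with talc in both arms. By the mean over probe sets, Epsti1 was also the single gene of the 41 that passed with at least a 2-fold change in the average of both arms.

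Ifi44, a cytoplasmic protein induced by interferon in many cell types, fell more than 2-fold in the vehicle arm. It measured 6.98, 7.23 and 7.49 with vehicle and 6.29, 5.69 and 6.25 with talc. With estradiol the values were 6.93, 7.32 and 6.73 without talc and 6.62, 5.93 and 6.07 with it. The talc arrays lay below the arrays without particles in both arms, although by a narrow margin with estradiol. The change was -1.16 ± 0.25 against vehicle (limma adjusted p = 0.0069). In the estradiol arm it was -0.79 ± 0.25 and did not pass (adjusted p = 0.071), and the average was -0.97 ± 0.18 (adjusted p = 0.00093). Neither Epsti1 nor Ifi44 lost its call against vehicle or in the average under any alternative tried.

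Ifi35, a leucine zipper protein that binds the related protein Nmi, moved the other way. Its levels were 6.59, 6.67 and 6.83 with vehicle and 7.25, 7.20 and 7.25 with talc. With estradiol they were 6.72, 6.58 and 6.70 without talc and 7.43, 7.33 and 7.32 with talc. The 6 talc arrays were all above the 6 arrays without particles. The rise was 0.54 ± 0.10 against vehicle (limma adjusted p = 0.0016) and 0.69 ± 0.10 with estradiol (adjusted p = 0.00026), or 1.45-fold and 1.61-fold. None of its 10 probe sets was lower with talc in either arm (0 of 10). With its brightest probe set alone, the rise was 0.66 against vehicle and 0.64 with estradiol, with adjusted p-values of 0.060 and 0.084.

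Samd9l, an antiviral protein that also restrains cell growth, showed small differences with little spread in the mean of its probe sets. Its levels were 5.26, 5.35 and 5.32 with vehicle and 4.98, 5.11 and 4.97 with talc. In the estradiol arm they were 5.57, 5.26 and 5.41 without talc and 5.11, 5.01 and 4.99 with it. The talc arrays lay below their controls in each arm. The change was -0.38 ± 0.10 with estradiol (limma adjusted p = 0.025) and -0.29 ± 0.10 against vehicle, which did not pass (adjusted p = 0.079), and the average passed at -0.34 ± 0.07 (adjusted p = 0.0025). The call with estradiol was lost without talc plus estradiol replicate 2 or 3 or estradiol replicate 1 or 3 (adjusted p from 0.065 to 0.13), and the median of its 4 probe sets ended the call in the average (adjusted p = 0.18). The brightest Samd9l probe set, at a mean level of 8.32, changed by -0.70 against vehicle, -0.74 with estradiol and -0.72 in the average. The remaining genes of this group, Xaf1, a pro-apoptotic factor, and Rtp4, a chaperone for receptors that was found to be induced by interferon, did not pass in either arm, with averages of -0.07 ± 0.11 and -0.25 ± 0.10.

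**Figure D2:**
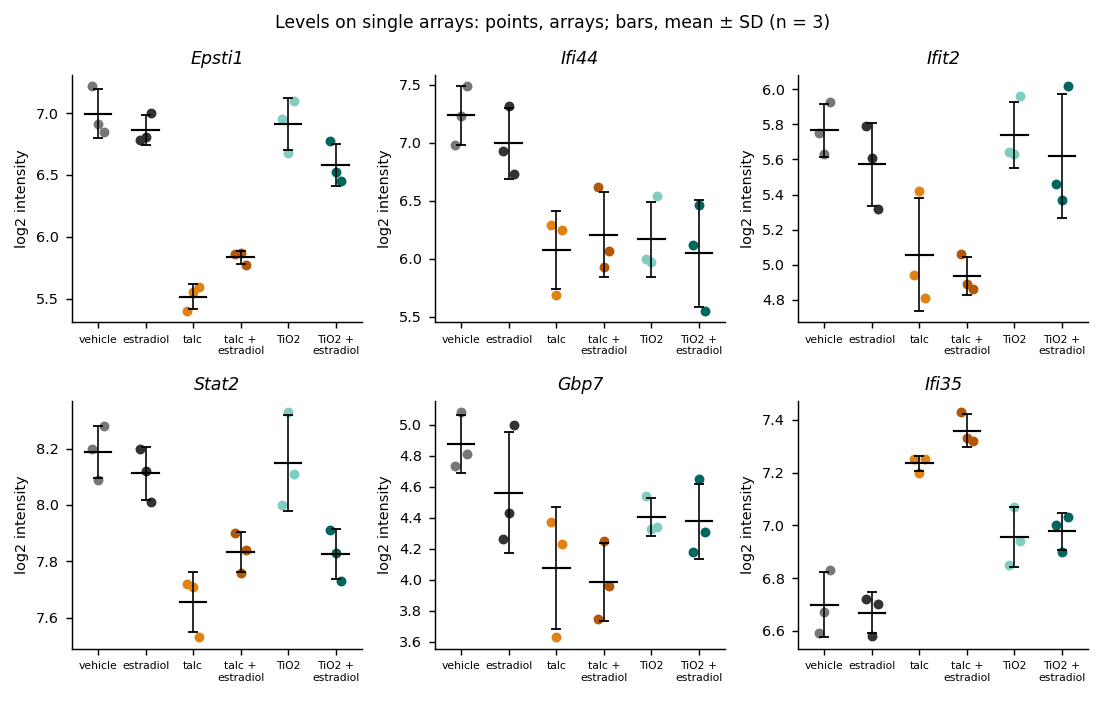
Log2 intensity of Epsti1, Ifi44, Ifit2, Stat2, Gbp7 and Ifi35 in the 6 groups; points are arrays, and the bar and whiskers are the mean ± SD (n = 3). In Epsti1 and Ifit2 the talc arrays lie below the vehicle and TiO2 arrays, in Ifi44 all 12 particle arrays lie below all 6 without particles, and Ifi35 is highest with talc and intermediate with TiO2.

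Among the signalling and transcription factors, Stat2, a transcription factor that acts within ISGF3, was the only gene of the 3 that passed with talc. Of all genes, 6.87% fell with talc in the average of both arms and 7.92% rose. Stat2 measured 8.20, 8.09 and 8.28 with vehicle and 7.72, 7.71 and 7.53 with talc. With estradiol it measured 8.20, 8.12 and 8.01 without talc and 7.90, 7.76 and 7.84 with it. In each arm the talc arrays lay below the others. It fell by 0.53 on the log2 scale against vehicle (SE 0.11, limma adjusted p = 0.0037). The change with estradiol was -0.28 ± 0.11 and did not pass (adjusted p = 0.14), and the average was -0.41 ± 0.07 (adjusted p = 0.0010). In the average, 20 of 20 Stat2 probe sets were lower with talc, although the brightest alone did not pass (adjusted p = 0.076). Irf9, its partner in ISGF3, changed by 0.07 ± 0.12 in the average (adjusted p = 0.81), and Irf7, the factor that amplifies interferon-alpha production, by -0.12 ± 0.13 (adjusted p = 0.69).

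Of the 10 antiviral effectors, 2 fell with talc in the average and none rose (0 of 10), against 6.87% and 7.92% of all genes. Ifit2 binds viral RNA and limits its translation. It measured 5.75, 5.63 and 5.93 with vehicle and 4.94, 5.42 and 4.81 with talc, and in the estradiol arm 5.79, 5.61 and 5.32 without talc and 5.06, 4.89 and 4.86 with it. The groups did not overlap in either arm, and talc replicate 2 was the talc array nearest to its controls. The changes were -0.71 ± 0.18 and -0.64 ± 0.18 (limma adjusted p = 0.022 and 0.045), and the average was -0.67 ± 0.13 (adjusted p = 0.0015). The call against vehicle was lost without talc replicate 1 or 3 or vehicle replicate 1 or 3 (adjusted p from 0.057 to 0.12), and that with estradiol without any talc plus estradiol array or estradiol replicate 1 or 2 (0.072 to 0.18). The brightest of the 5 Ifit2 probe sets changed by -1.17 against vehicle, -1.04 with estradiol and -1.10 in the average. Cmpk2, a mitochondrial nucleotide kinase encoded next to the antiviral gene Rsad2, measured 5.74, 5.65 and 5.68 with vehicle and 4.97, 5.14 and 5.03 with talc. With estradiol its levels were 5.76, 5.66 and 5.33 without talc and 5.41, 5.03 and 5.05 with it, and here a talc array lay above a control array. The changes were -0.64 ± 0.15 (adjusted p = 0.012) and -0.42 ± 0.15 (adjusted p = 0.11), with an average of -0.53 ± 0.11 (adjusted p = 0.0020). Without talc replicate 1 the adjusted p against vehicle was 0.052. The brightest of the 7 Cmpk2 probe sets changed by -0.88 against vehicle, -0.81 with estradiol and -0.84 in the average.

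The other 8 effectors did not pass with talc in either arm. Isg15, the ubiquitin-like modifier, changed by -0.20 ± 0.10 in the average (limma adjusted p = 0.25), and Rsad2, the radical enzyme that makes a chain-terminating nucleotide, by 0.09 ± 0.09 (adjusted p = 0.64). Mx1 and Mx2, genes of the dynamin-like GTPase family, both averaged -0.05, with errors of 0.10 and 0.14. Their mean levels were low, at 3.05 and 3.44 (percentiles 12.3 and 19.7 of all genes). Ifit1, which binds uncapped or undermethylated viral RNA, averaged -0.07 ± 0.15, and Isg20, an exonuclease, -0.13 ± 0.11. Ifit3, a partner of Ifit1 that is read by only 2 probe sets and has the near-identical neighbour Ifit3b, was the most variable of the 41, with a range of 2.66 log2 units over the 18 arrays. Its group means were 3.587 with vehicle, 4.048 with talc and 4.634 with TiO2. With estradiol they were 4.025 without particles, 3.417 with talc and 3.740 with TiO2. Bst2, or tetherin, which holds budding virions at the cell surface, measured 7.21, 7.30 and 7.40 with vehicle, 7.35, 7.40 and 7.25 with talc, 6.82, 7.10 and 7.41 with estradiol and 7.37, 7.30 and 7.54 with talc plus estradiol. These Bst2 groups overlapped, and the average change was 0.16 ± 0.10 (adjusted p = 0.34).

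The oligoadenylate synthetases make the second messenger that activates RNase L once they bind double-stranded RNA. Oas2 was the gene of the 5 that passed, and only in the average, where 6.87% of all genes fell and 7.92% rose. It measured 5.44, 5.38 and 5.19 with vehicle and 4.97, 5.13 and 5.09 with talc, and 5.66, 5.62 and 5.32 with estradiol and 5.30, 4.78 and 5.32 with both. The talc arrays were the lower ones in both arms, but the nearest 2 arrays with estradiol both rounded to 5.32. Its changes were -0.27 ± 0.15 and -0.40 ± 0.15 (limma adjusted p = 0.35 and 0.14), and the average was -0.34 ± 0.11 (adjusted p = 0.042). That call was lost without talc plus estradiol replicate 2, any talc array, estradiol replicate 1 or 2 or vehicle replicate 1 or 2 (adjusted p from 0.058 to 0.11), and with quantile normalization (0.052). Of the 13 Oas2 probe sets, 7 were lower with talc in the average, and the brightest changed by -0.67. Oasl2, a relative that carries ubiquitin-like domains, also did not overlap in either arm and averaged -0.44 ± 0.15, which did not pass (adjusted p = 0.062). Oas3, the synthetase with the longest chain of repeated domains, measured 6.62, 6.77 and 6.89 with vehicle, 6.49, 6.33 and 6.56 with talc, 6.46, 6.80 and 6.40 with estradiol and 7.01, 6.55 and 6.55 with both. Its talc arrays lay below vehicle but overlapped their controls with estradiol, and the average was -0.08 ± 0.11 (adjusted p = 0.75). Oas1a and Oasl1 averaged -0.05 ± 0.13 and 0.09 ± 0.14. Oas1a has close paralogs, and how far its probes also read them was not tested.

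No nucleic acid sensor passed with talc (0 of 4), against 6.87% of all genes that fell in the average and 7.92% that rose. Ifih1, or MDA5, the helicase that recognises long double-stranded RNA, measured 7.91, 7.83 and 7.80 with vehicle and 7.40, 7.49 and 7.53 with talc. In the estradiol arm it measured 7.66, 7.78 and 7.83 without talc and 7.46, 7.73 and 7.70 with it. The groups were apart without estradiol and overlapped with it. The changes were -0.37 ± 0.12 (limma adjusted p = 0.066) and -0.12 ± 0.12 (adjusted p = 0.66). Dhx58, the regulatory helicase LGP2, averaged 0.02 ± 0.08, and Zbp1, a sensor of left-handed nucleic acid that can trigger necroptosis, -0.10 ± 0.11. Ifi204, a DNA sensor with many paralogs that is read by only 2 probe sets, averaged 0.33 ± 0.26.

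Of the 7 enzymes of the ubiquitin, ISG15 and ADP-ribose systems, 2 fell in the average, against 6.87% of all genes. Herc6, the main ligase for ISG15 in mouse, measured 8.08, 7.95 and 7.70 with vehicle and 7.55, 7.75 and 7.68 with talc, which overlapped. With estradiol it measured 8.06, 8.05 and 8.17 without talc and 7.54, 7.73 and 7.44 with it, which did not. The change was -0.25 ± 0.12 without estradiol (limma adjusted p = 0.26), -0.52 ± 0.12 with it (adjusted p = 0.012) and -0.39 ± 0.08 in the average (adjusted p = 0.0039). Without talc plus estradiol replicate 3 the adjusted p with estradiol was 0.069, and the brightest of its 22 probe sets alone did not pass in the average (0.15). Trim30a, which restrains Toll-like receptor signalling, measured 5.77, 5.65 and 5.4 with vehicle and 4.99, 4.96 and 4.59 with talc. With estradiol it measured 5.78, 5.01 and 5.21 without talc and 5.05, 4.97 and 5.08 with it, and these overlapped. The change was -0.76 ± 0.19 against vehicle (adjusted p = 0.020) and -0.53 ± 0.14 in the average (adjusted p = 0.013). With estradiol the Trim30a means were 5.33 without talc and 5.03 with it, and that change did not pass. The call for Trim30a rests on its dimmer probe sets, since its brightest one differed by 0.01 against vehicle, and it was lost against vehicle without talc replicate 3 or vehicle replicate 1 or 2 (adjusted p from 0.066 to 0.11). Trim30a belongs to a family of close paralogs.

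Trim25, the ligase that modifies the RNA sensor RIG-I, measured 8.35, 8.30 and 8.55 with vehicle and 8.44, 8.41 and 8.64 with talc. With estradiol it measured 8.30, 8.35 and 8.55 without talc and 8.71, 8.59 and 8.70 with it. The groups overlapped in the vehicle arm and not in the estradiol arm, and the average change of 0.18 ± 0.09 did not pass (limma adjusted p = 0.21). Usp18, which removes ISG15 and blocks the receptor, averaged -0.25 ± 0.13 (adjusted p = 0.29). Parp9, Dtx3l and Parp14, which form or regulate an ADP-ribosylation complex, averaged -0.17 ± 0.09, -0.18 ± 0.10 and -0.02 ± 0.09 and did not pass.

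Among the 6 GTPases, 2 fell in the average, against 6.87% of all genes. Both were guanylate-binding proteins, which gather on the vacuoles of intracellular pathogens. Gbp7 measured 4.73, 5.08 and 4.81 with vehicle and 4.37, 3.63 and 4.23 with talc, and with estradiol 4.26, 4.43 and 5.0 without talc and 3.75, 4.25 and 3.96 with it. Its talc arrays lay below their controls in both arms, by 0.01 at the closest with estradiol. Its changes were -0.79 ± 0.21 and -0.58 ± 0.21 (limma adjusted p = 0.024 and 0.12), with an average of -0.69 ± 0.15 (adjusted p = 0.0036). The call against vehicle was lost without talc replicate 2 or vehicle replicate 2 or 3 (adjusted p from 0.055 to 0.12), and the brightest of its 9 probe sets differed by -0.01 there and by -0.36 in the average (adjusted p = 0.58). Gbp2 measured 5.66, 5.54 and 6.01 with vehicle and 5.15, 4.96 and 4.38 with talc, and with estradiol 5.35, 5.20 and 5.85 without talc and 5.29, 4.85 and 5.03 with it. The Gbp2 groups were apart only in the vehicle arm, where the change was -0.91 ± 0.26 (adjusted p = 0.040), and the average was -0.66 ± 0.19 (adjusted p = 0.022). With estradiol the Gbp2 means were 5.47 without talc and 5.06 with it, and that change did not pass. The brightest of the 7 Gbp2 probe sets was 0.16 higher with talc against vehicle, and leaving out talc replicate 2 or 3 or any vehicle array ended the call against vehicle (adjusted p from 0.06 to 0.2). The average was lost without replicate 3 of vehicle, estradiol or talc or replicate 2 of talc plus estradiol (adjusted p from 0.056 to 0.067). Guanylate-binding proteins form a family of similar genes, and whether probes read more than 1 of them was not tested, so the Gbp2, Gbp3 and Gbp7 values are uncertain.

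The other GTPases did not pass with talc. Gbp3 averaged 0.14 ± 0.13. The immunity-related GTPases, which act on the same vacuoles, gave 0.08 ± 0.11 for Irgm1, -0.14 ± 0.11 for Igtp and 0.12 ± 0.11 for Ifi47. Igtp measured 5.69, 5.72 and 6.17 with vehicle, 5.65, 5.72 and 5.57 with talc, 5.83, 5.57 and 6.11 with estradiol and 5.53, 6.03 and 5.76 with both. All of these Igtp groups overlapped with their controls. Across the 405 probe sets of the 41 genes, 273 were lower with talc in the vehicle arm, 239 in the estradiol arm and 276 in the average. The share over all probe sets was not computed, and probe sets of the same gene are not independent, so these counts carry no test.

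**Figure D3:**
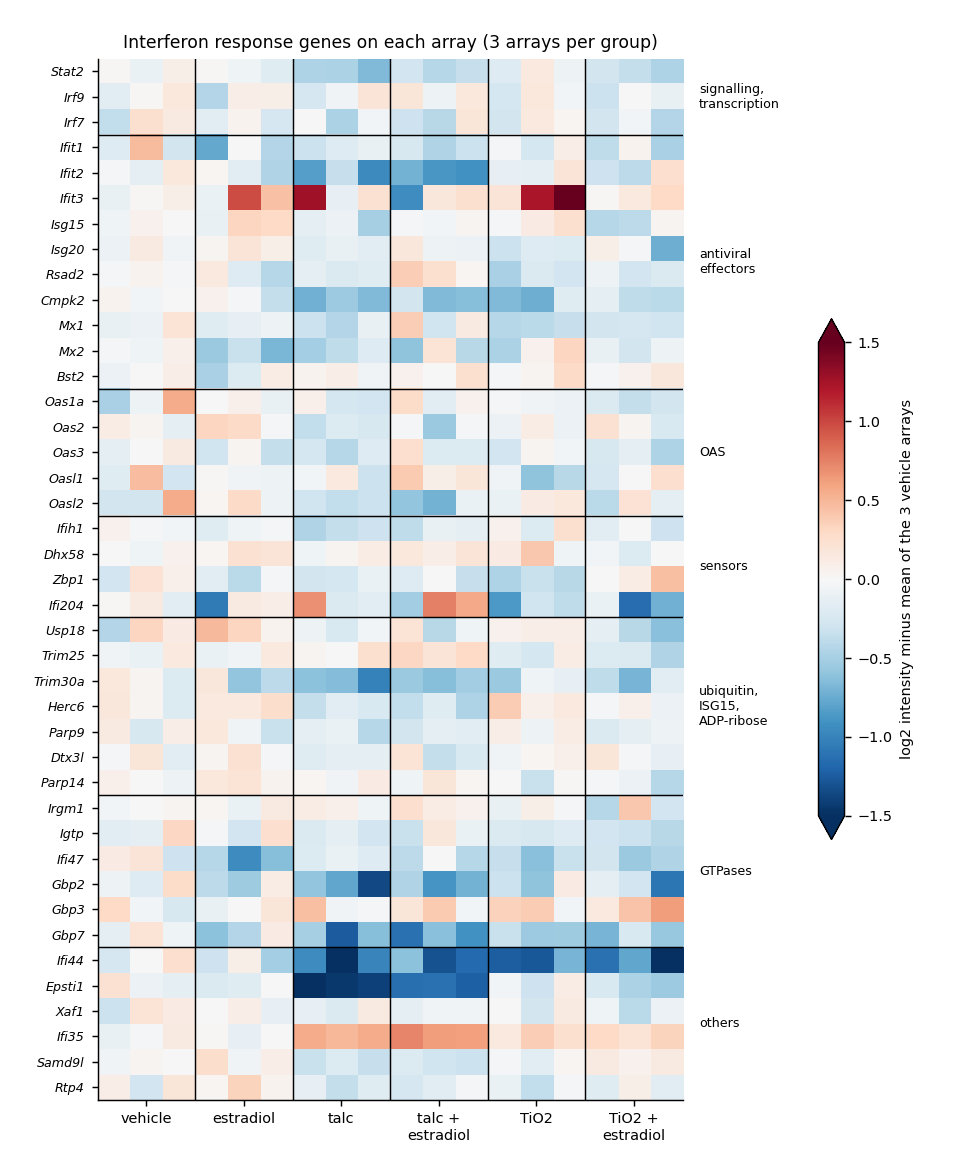
Each gene's log2 intensity on each of the 18 arrays minus its mean on the 3 vehicle arrays; rows are the 41 genes by role, columns are arrays by group, blue is lower and red is higher than vehicle, with colours ending at 1.5 in either direction. The rows of Epsti1, Ifit2 and Ifi35 change at the talc columns, the Ifi44 row is blue under both particles, and most other rows are pale.

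The arms with and without estradiol were then compared with each other. Against vehicle, 18 of the 41 genes were lower on all talc arrays than on all vehicle arrays (43.9%), against 12.6% of all genes, and 1 was higher, against 13.6%. In the estradiol arm 10 were lower and 3 higher, against 12% and 14.2%. Groups that were apart in both arms were found for 8 lower genes and 1 higher, against 6.09% and 7% of all genes; the 8 were Epsti1, Ifi44, Ifit2, Stat2, Gbp7, Samd9l, Oas2 and Oasl2. The interaction of talc with estradiol passed for none of the 41 genes (limma) and for 0% of all genes, and the smallest adjusted p was 0.64. At an unadjusted p under 0.05, 6 members had an interaction (14.6%), against 6.32% of all genes, and in all of these the change with talc was more positive with estradiol. The smallest p-values were those of Rsad2, with an interaction of 0.55 ± 0.19 (adjusted p = 0.64), Ifi47, with 0.56 ± 0.23 (adjusted p = 0.71), and Mx1, with 0.49 ± 0.20 (adjusted p = 0.71). For Epsti1 it was 0.45 ± 0.18 (adjusted p = 0.71), with a 95% interval from 0.06 to 0.83.

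TiO2 was the other particle, and its comparisons share the vehicle or estradiol arrays with those of talc. No gene of the 41 passed against vehicle, as none of all genes did (0%), and 9 had an unadjusted p under 0.05, against 8.16% of all genes. With estradiol none passed, against 0.00433% of all genes, and 9 had an unadjusted p under 0.05, against 8.91%. The average of both arms, a comparison added after the data were seen, also had none at an adjusted p under 0.05 (limma), with 0% of all genes. In it 12 genes had an unadjusted p under 0.05 (10 lower and 2 higher, against 8.94% of all genes), and 34 of the 41 were below zero, against 52.5%.

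Ifi44 was the gene with the smallest p in both TiO2 comparisons. It measured 6.0, 5.97 and 6.54 with TiO2 and 6.12, 6.46 and 5.55 with TiO2 plus estradiol. Both sets lay below their controls, which ranged from 6.98 to 7.49 with vehicle and from 6.73 to 7.32 with estradiol. The change was -1.07 ± 0.25 against vehicle (limma adjusted p = 0.35) and -0.95 ± 0.25 with estradiol (adjusted p = 0.40), and neither passed. Its average of -1.01 ± 0.18 with TiO2 (95% interval -1.39 to -0.63, adjusted p = 0.21) stands beside -0.97 ± 0.18 with talc. The direct difference, talc minus TiO2, was 0.03 ± 0.18, with a 95% interval from -0.34 to 0.41.

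The next smallest p-values with TiO2 belonged to Cmpk2, at -0.52 ± 0.15 (limma adjusted p = 0.43), and Mx1, at -0.39 ± 0.14 (adjusted p = 0.51), against vehicle. With estradiol they belonged to Usp18, at -0.68 ± 0.19 (adjusted p = 0.40), and Ifi35, at 0.31 ± 0.10 (adjusted p = 0.41). Cmpk2 measured 5.03, 4.96 and 5.51 with TiO2, all below vehicle. Ifi35 measured 6.85, 7.07 and 6.94 with TiO2 and 7.0, 6.90 and 7.03 with TiO2 plus estradiol. All 6 of these Ifi35 values lay above their controls and below all 6 talc values. Its average change with TiO2 was 0.28 ± 0.07 and did not pass (adjusted p = 0.26).

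**Figure D4:**
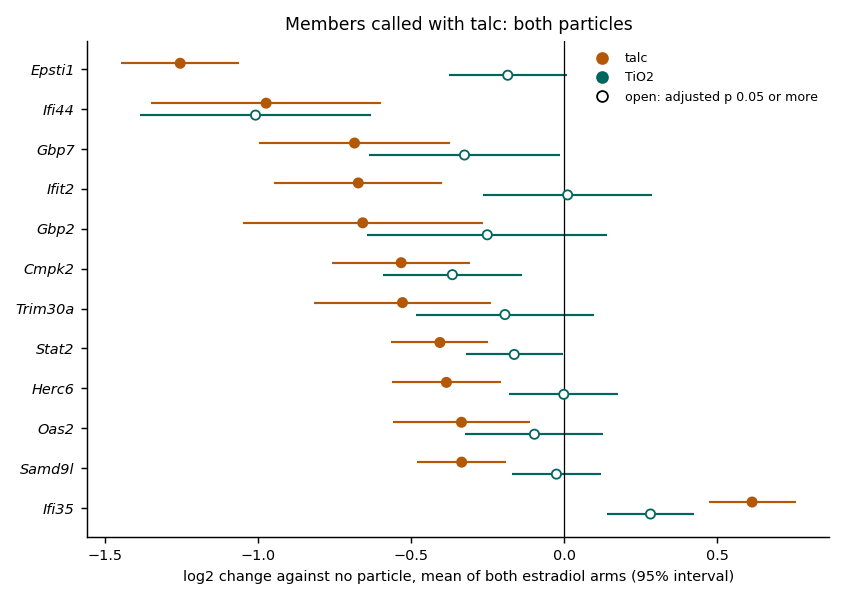
Log2 change against no particle, averaged over both estradiol arms, for the 12 genes that passed with talc; brown is talc, green is TiO2, lines are 95% intervals and open points did not pass an adjusted p of 0.05. The intervals of talc and TiO2 lie apart for Epsti1, Ifit2, Samd9l, Herc6 and Ifi35 and lie over each other for Ifi44; both particles are set against the same control arrays.

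Set directly against TiO2, talc gave lower levels of 5 of the 41 genes and higher levels of none, against 5.35% and 4.61% of all genes (limma, adjusted p under 0.05). Epsti1, at 6.95, 6.68 and 7.10 with TiO2, was lower with talc by 1.39 ± 0.13 on the log2 scale (adjusted p = 8.3e-06). Ifit2, at 5.64, 5.63 and 5.96 with TiO2, differed by -0.68 ± 0.18 (adjusted p = 0.025). Stat2, at 8.0, 8.33 and 8.11 with TiO2, differed by -0.49 ± 0.11 (adjusted p = 0.0061), and Herc6, at 8.29, 7.98 and 8.05, by -0.45 ± 0.12 (adjusted p = 0.023). Ifih1, at 7.91, 7.64 and 8.09 with TiO2, differed by -0.40 ± 0.12 (adjusted p = 0.041). For these 5 genes no talc array reached the level of a TiO2 array. The count was 2 without talc replicate 1 or 3, 3 without TiO2 replicate 1 or 3, and 1, Epsti1, in a fit of only the arrays compared.

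With estradiol in both groups, 3 of the 41 genes were lower and 2 higher with talc than with TiO2, against 2.87% and 6.66% of all genes (limma, adjusted p under 0.05). Epsti1, at 6.77, 6.52 and 6.45 with TiO2 plus estradiol, differed by -0.75 ± 0.13 (adjusted p = 0.0017). Samd9l, at 5.44, 5.37 and 5.44, differed by -0.38 ± 0.10 (adjusted p = 0.020), and Ifit2, at 5.46, 5.37 and 6.02, by -0.68 ± 0.18 (adjusted p = 0.026). Trim25, at 8.20, 8.18 and 7.95 with TiO2 plus estradiol, was higher with talc by 0.56 ± 0.12 (adjusted p = 0.0076), and Ifi35 by 0.38 ± 0.10 (adjusted p = 0.017). The count was 3 without replicate 3 of either group and 2 in a fit of only the arrays compared. In Trim25 the difference joined a value above the controls with talc and a value below them with TiO2, neither of which passed on its own. TiO2 plus estradiol replicate 3, the array with the lowest upper quartile, was also the lowest of its group for Trim25 and Epsti1, and the part of that array's brightness in these values was not tested.

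Averaged over both arms, a comparison added after the data were seen, 5 genes were lower and 2 higher with talc than with TiO2, against 6.26% and 9.17% of all genes. Those lower were Epsti1, at -1.07 ± 0.09 (limma adjusted p = 7.7e-07), Ifit2, at -0.68 ± 0.13 (adjusted p = 0.0013), Herc6, Samd9l and Stat2, the last at an adjusted p of 0.035 that rose to between 0.063 and 0.096 without any of 6 arrays: TiO2 replicate 2, TiO2 plus estradiol replicate 1 or 2, talc replicate 3 and talc plus estradiol replicate 2 or 3. Those higher were Trim25, at 0.38 ± 0.09 (adjusted p = 0.0046), and Ifi35, at 0.33 ± 0.07 (adjusted p = 0.0022). Among the genes that fell with talc against no particle, Ifi44, Cmpk2, Gbp2, Gbp7, Trim30a and Oas2 did not pass here. The differences of these 6 ranged from -0.41 ± 0.19 for Gbp2 to 0.03 ± 0.18 for Ifi44.

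Estradiol alone changed none of the 41 genes at an adjusted p under 0.05 (limma; 0% of all genes), and 2 had an unadjusted p under 0.05, against 4.87% of all genes. The smallest p was that of Ifi47, at 6.0, 6.07 and 5.57 with vehicle and 5.45, 4.94 and 5.24 with estradiol. These values did not overlap, and the change was -0.67 ± 0.16 (adjusted p = 0.65). Mx2 and Ifit1 followed, at -0.52 ± 0.20 and -0.40 ± 0.21 (adjusted p = 0.98 and 1.0). For 38 of the 41 genes the 95% interval of the change lay within 2-fold in both directions.

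Estradiol added to talc also left no gene past the threshold (limma; 0% of all genes). At an unadjusted p under 0.05 there were 3, all higher, against 6.58% of all genes, and 9 of the 41 changes were below zero, against 50.4% of all genes. These 3 were Rsad2, at 0.39 ± 0.13 (adjusted p = 0.71), Mx1, at 0.36 ± 0.14 (adjusted p = 0.72), and Epsti1, at 0.32 ± 0.13 (adjusted p = 0.72). Rsad2 measured 4.62, 4.54 and 4.58 with talc and 5.13, 5.0 and 4.79 with talc plus estradiol, without overlap.

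Estradiol added to TiO2 left none of the 41 past the threshold, against 0.00866% of all genes, and 6 had an unadjusted p under 0.05 (5 lower and 1 higher), against 13%. The 3 with the smallest p were Zbp1, at 0.59 ± 0.15 (limma adjusted p = 0.17), Stat2, at -0.32 ± 0.11 (adjusted p = 0.24), and Isg15, at -0.38 ± 0.15 (adjusted p = 0.30). Zbp1 measured 4.05, 4.18 and 4.09 with TiO2 and 4.50, 4.62 and 4.96 with TiO2 plus estradiol, without overlap. The interaction of TiO2 with estradiol passed for none of the 41 (0% of all genes), and 7 had an unadjusted p under 0.05, against 8.05%. Its smallest p-values belonged to Zbp1, at 0.78 ± 0.21 (adjusted p = 0.42), Ifi47, at 0.67 ± 0.23 (adjusted p = 0.50), and Usp18, at -0.77 ± 0.27 (adjusted p = 0.50).

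By group means, 15 of the 41 genes had their highest level in the vehicle group, against 15.1% of all genes, and 1 had its lowest there. The talc group held the lowest mean of 12 genes and the highest of none (0), against 17.9% and 19.8% of all genes. The TiO2 plus estradiol group held the lowest mean of 13, against 20.8%. These counts describe the order of 6 means and carry no test.

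The rest of the interferon pathway was described through 5 lists with 120 measured genes that are not among the 41. With talc in the average of both arms, 14 of the 120 fell and 13 rose (limma, adjusted p under 0.05), against 6.87% and 7.92% of all genes, with a median of -0.02. In the vehicle arm 8 fell (6.67%) and 4 rose, against 4.52% and 3.94% of all genes. With estradiol 5 fell (4.17%) and 11 rose, against 3% and 4.13%. None of the 120 passed with TiO2 or with estradiol. Of 15 ligands, 1 rose and none fell. It was Ifna12, at 0.26 ± 0.08 (adjusted p = 0.049), which was named after its value was seen and belongs to a family of near-identical genes. The ligand Ifnb1, the first interferon made by most cells, lay between 2.09 and 2.85 on all arrays, at percentile 5.79 of all genes, and changed by -0.09 ± 0.13.

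The receptor and its signalling genes comprised 10 genes, of which 1 rose and 1 fell in the average, against 7.92% and 6.87% of all genes. Irf5, a factor that drives inflammatory genes in macrophages, rose by 0.47 ± 0.09 (limma adjusted p = 0.0016), and Irf1 fell by 0.25 on the log2 scale (SE 0.08, adjusted p = 0.034), named after its value was seen. Among 17 sensors and adaptors that induce interferon, 2 fell and 4 rose, against 6.87% and 7.92% of all genes. Tlr7 and Tlr8, endosomal receptors for single-stranded RNA, were the genes that fell. Tlr7 went from 7.85 ± 0.15 with vehicle to 6.51 ± 0.19 with talc (SD, n = 3), and its average change was -1.22 ± 0.09 (adjusted p = 1.1e-07). Tlr8 went from 5.98 ± 0.16 to 3.89 ± 0.10, a change of -2.09 ± 0.19 against vehicle, and with estradiol the change was -0.77 ± 0.19 (limma adjusted p = 5.8e-06 and 0.018). The Tlr8 average was -1.43 ± 0.13 (adjusted p = 1.3e-06), and the test of the difference between arms passed for 0% of all genes. The 4 adaptors that rose were Ticam2, Ticam1, Myd88 and Traf3, at 0.42, 0.34, 0.31 and 0.26, named after their values were seen. Of 11 negative regulators, 1 passed, and it rose, against 7.92% of all genes. It was Tnfaip3, the A20 enzyme that edits ubiquitin on NF-kB signalling proteins, at 0.82 ± 0.09 (limma adjusted p = 6e-06).

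A further 67 interferon-induced genes outside the 41 gave 11 that fell (16.4%) and 6 that rose, against 6.87% and 7.92% of all genes. Uba7, the enzyme that activates ISG15, had the smallest p among them and fell by 0.72 on the log2 scale (SE 0.08, limma adjusted p = 4.5e-06), from 7.58 ± 0.05 with vehicle to 6.86 ± 0.05 with talc (SD, n = 3). Slfn9 had an average change of -0.73 ± 0.10, Lgals9, which encodes galectin-9, of -0.55 ± 0.11, and Phf11b of -0.44 ± 0.08 (adjusted p = 9.9e-05, 0.0015 and 0.0013). In the other direction were Ifi202b, at 0.71 ± 0.11, Cd274, the checkpoint ligand PD-L1, at 0.69 ± 0.12, Slfn2, at 0.54 ± 0.09, and Casp4, the caspase-11 gene that senses lipopolysaccharide, at 0.49 ± 0.10 (adjusted p = 0.00024, 0.00076, 0.00036 and 0.0023).

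**Figure D5:**
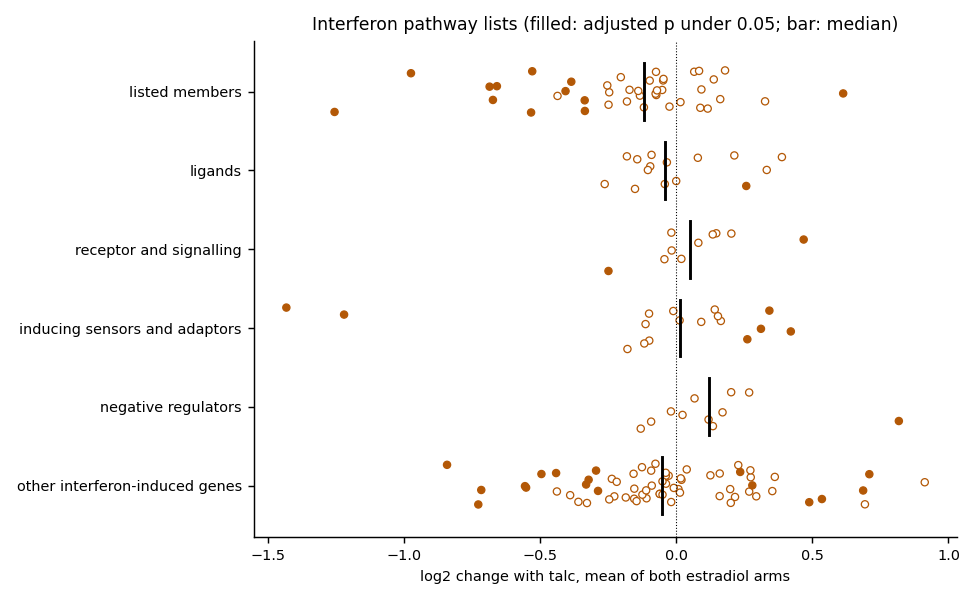
Log2 change with talc, averaged over both estradiol arms, for the 41 listed genes and the 5 pathway lists; points are genes, filled where the adjusted p was under 0.05, and black bars are list medians. The listed genes have a median of -0.12 and 11 filled points below zero, while Tlr8 and Tlr7 stand out to the left among the sensors and Tnfaip3 to the right among the negative regulators.

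Some markers of cell identity moved with talc as well. Of 11 macrophage markers, 3 fell in the average of both arms (27.3%, against 6.87% of all genes): Adgre1, which encodes F4/80, by 0.49 on the log2 scale, Itgam by 0.47 and Fcgr3 by 0.51. All 3 passed against vehicle, whereas with estradiol Itgam alone did. Adgre1 changed by -0.79 ± 0.16 against vehicle and by -0.18 ± 0.16 with estradiol, where its arrays overlapped (limma adjusted p = 0.0052 and 0.64). The other macrophage markers did not pass in the average and went both ways. Spi1, Tyrobp, Cd68 and Lyz2 changed by 0.18, 0.15, 0.13 and 0.05 there. Ptprc, Mertk, Csf1r and Fcer1g changed by -0.20, -0.10, -0.09 and -0.06. The 11 macrophage markers lay between 5.98 and 12.9 on all arrays. Of the other markers 1 of 5 for fibroblasts passed, Pdgfra, at -0.78, and none did of 5 each for plasmacytoid dendritic cells, epithelium, lymphocytes and granulocytes. Granulocyte markers lay between 2.5 and 4.59 and lymphocyte markers between 2.59 and 4.46 on all arrays, and a microarray gives no true zero. The plasmacytoid dendritic cell markers include Bst2, which is also one of the 41. The part of these marker changes in the interferon response genes was not tested.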

How the data were processed

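The authors deposited intensity values, 1 for each probe set on each array and not log-transformed, and the submitters' processing notes name RMA without a version, a level of summary or a step back from log2. The values were taken to log2, and a gene's value was the mean over its probe sets with a single symbol in the platform's annotation: 233753 of 269751 probe sets, for 23102 genes, with 2247 older symbols updated. Probes shared by close paralogs were not separated, and no gene was filtered out.

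A model with a mean for each of the 6 groups was fitted to all 18 arrays with limma 3.58.1 in R 4.3.3 (12 residual and 4.57 prior degrees of freedom). Reported p-values are two-sided and were adjusted by Benjamini-Hochberg over all genes of each of 14 contrasts, with 0.05 as the threshold. Errors of changes are standard errors. The members and lists, and the tests, were chosen with earlier results of these data known. Per-array values are printed for members that passed in any contrast and for the member of each role group with the highest mean intensity, which may be the same. Where none passed, the 3 members with the smallest p are named, with per-array values for some of them. Of the pathway genes, the 12 with the smallest p with talc are named. Of 129 genes in the pathway lists, 120 were measured, and the others were not analysed here. The fit was tested on simulated data.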

Additional observations from a re-analysis of the deposited data

How the results depend on the processing

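The 12 genes called with talc in the average of both arms numbered 10 to 13 when 1 array was left out and 10 to 16 under the other alternatives. Against vehicle, 9 became 4 with the brightest probe set of each gene, where Trim30a and Gbp2 turned to 0.0089 and 0.16, and 6 to 9 without 1 array. With estradiol, 5 became 3 with the median of probe sets and 9 with an offset of 16 added before log2, and 2 to 6 without 1 array. Talc against TiO2 gave 5 genes, but 2 with the brightest probe set, 1 when the fit held just the compared arrays and 2 to 5 without 1 array. With estradiol in both groups it gave 5, but 3 with the brightest probe set, 3 with the median of probe sets, 2 when the fit held just those arrays and 3 to 5 without 1 array. The average of that comparison gave 7, and 5 to 10 over all alternatives. The comparisons of TiO2 or estradiol with their controls and the interactions gave 0 under all alternatives run. Of 1673 alternative values of named genes, 1521 stayed on the same side of the threshold, 114 were weaker, 36 stronger and 2 reversed. Values that changed sign without passing in either fit were counted among the 1521. A value was counted as reversed if its sign changed and at least 1 of the fits passed. The causes were not tested. Leaving out the array with the lowest upper quartile was chosen after seeing the data. No paired analysis was possible because the labels give no replicate numbers; those used here follow the accession order and only name the arrays. With 3 arrays per group, changes near the standard error of 0.151 could not be called. Some changes of several standard errors, such as that of Ifi44 with TiO2, did not pass either. A gene that was not called may therefore still have changed.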
